A study of Mus musculus with 10 samples.

Results

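Transcripts of 4 receptors of the immunoglobulin superfamily, Tigit, PVRIG, Cd226 and Cd96, were followed in regulatory T (Treg) cells of mouse spleen by RNA sequencing. The members are the rows with these names, 4 of the 14738 genes in the deposited table. PVRIG stands there in capitals. The first group, labelled Flcn KO (5 libraries), was Treg cells descended from Foxp3-Cre marrow with loxP-flanked Flcn alleles, so that Flcn, which encodes the nutrient-sensing protein folliculin, is deleted in cells that switch on Foxp3. The second group, WT (5 libraries), came from Foxp3-Cre marrow without those alleles. Each marrow had been mixed in equal parts with CD45.1-marked marrow to rebuild the blood system of the host. The sorted cells carried CD4, CD45.2 and Foxp3-YFP and lacked CD45.1, and both groups share the Foxp3-Cre allele and the company of CD45.1 cells. The sources used here give no age, sex, host strain or batch. The 4 genes were picked by name with earlier results of this comparison known, so their differences are described with their errors and are not tested.

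These receptors form a network around shared ligands. TIGIT, CD96 and CD226 bind the poliovirus receptor (PVR, CD155), and in humans TIGIT, PVRIG and CD226 also bind nectin-2. CD226 is a costimulatory receptor, TIGIT and PVRIG are inhibitory receptors that compete with it for ligand, and CD96 has been described with both kinds of activity. In Treg cells TIGIT is known as a receptor of activated, highly suppressive cells, and its engagement induces Fgl2, a secreted suppressor of T helper responses.

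The libraries held 1914516 to 4153854 reads in the genes of the table, and 1 read was worth 0.628 to 1.27 normalized counts. A normalized count is a gene's read count divided by the size factor of its library. WT replicate 1 stood apart, with 44.1% of its reads in mitochondrial rRNA against 24.7% to 31.8% in the other 9 libraries. All 8 Treg markers listed had reads in every library. Cd3e averaged 1497 ± 160 normalized counts in libraries labelled Flcn KO and 1609 ± 234 in WT libraries, Cd4 averaged 1198 ± 125 in libraries labelled Flcn KO and 1370 ± 196 in WT libraries, and Foxp3 averaged 1207 ± 99.97 in libraries labelled Flcn KO and 1283 ± 64.1 in WT libraries (SD, n = 5 each). Of the other 5 markers, Il2ra, the high-affinity IL-2 receptor chain, rose (3228 ± 138 in libraries labelled Flcn KO and 2184 ± 156 in WT libraries, limma adjusted p = 0.0292), and Ikzf2 fell. Cd3g, Ctla4 and Tnfrsf18 did not pass, with every library labelled Flcn KO below every WT library. Flcn itself had 158, 129, 130, 149 and 124 normalized counts in the libraries labelled Flcn KO, against 78.0, 45.6, 54.7, 46.5 and 46.2 in WT libraries. These are totals over the gene, in which a deleted part cannot be seen. The totals were higher in the libraries whose label names the deletion, and they cannot show whether it took place. Each direction given here is therefore that of the labels, and each library is named by its label. In bulk RNA, fewer cells of a type and less RNA per cell cannot be told apart.

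In the libraries labelled Flcn KO each of the 4 receptors was lower than in WT libraries. Tigit stood at 21.1% of its WT mean, Cd226 at 56.8% and Cd96 at 70.7%, and PVRIG was nearly without reads. No library labelled Flcn KO reached the lowest WT library for any of the 4 genes. Across all 14723 tested genes, such a gap with the libraries labelled Flcn KO below was found for 2.45%, and the opposite gap for 2.47%. The genes were picked with this contrast known, so nothing is read from that count.

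**Figure D1:**
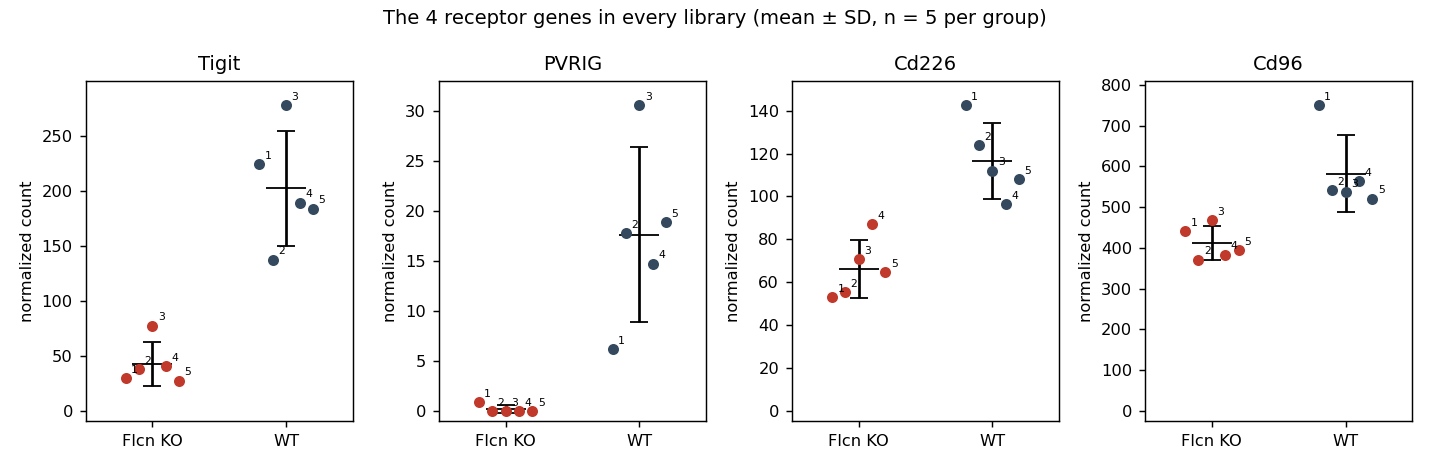
Normalized counts (vertical axis, linear) of Tigit, PVRIG, Cd226 and Cd96 in the 5 libraries labelled Flcn KO and the 5 WT libraries, each point 1 library with its replicate number, bars mean ± SD. In each panel every point labelled Flcn KO lies below every WT point, from the highest point labelled Flcn KO to the lowest WT point 60.0 normalized counts apart for Tigit and 9.11 apart for Cd226.

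Tigit encodes the inhibitory receptor with an immunoreceptor tyrosine motif in its tail. It had 30.0, 37.7, 77.4, 40.6 and 27.6 normalized counts in the libraries labelled Flcn KO, from replicate 1 to 5, against 224, 137, 278, 189 and 184 in WT libraries. The libraries labelled Flcn KO lay well below, and replicate 3 was the highest in both groups. The means were 42.7 ± 20.1 in libraries labelled Flcn KO and 202 ± 52.1 in WT libraries (SD, n = 5 each). On the log2(normalized count + 1) scale the difference was -2.28 (SE 0.29), and in the authors' deposited table the log2 fold change was -2.26 (SE 0.25). The values rest on 34 to 70 reads per library labelled Flcn KO and 167 to 218 reads per WT library. Counting error alone gave the highest library labelled Flcn KO an exact 95% Poisson interval of 60.3 to 97.7 normalized counts, and the lowest WT library 119 to 158. Such intervals cover counting error only.

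PVRIG, the inhibitory receptor of nectin-2, was close to absent from the libraries labelled Flcn KO. It had 0.857 normalized counts in replicate 1, which is 1 read, and 0 in the other 4, against 6.19, 17.8, 30.6, 14.7 and 18.9 in WT libraries. For those 4 libraries a count of 0 leaves room for 3 reads, or 1.88 to 3.33 normalized counts. The exact 95% Poisson interval was 0.0217 to 4.78 in replicate 1 labelled Flcn KO and 2.01 to 14.5 in WT replicate 1, the lowest WT library, so these libraries overlap in counting error. The summed reads were 1 in the libraries labelled Flcn KO and 85 in WT libraries. Scaled for depth, that is 1.02% of the WT level, with an exact 95% counting interval of 0.0255% to 5.84%. The log2 difference was -3.89 (SE 0.36) with 1 added to each normalized count, and -6.13 (SE 1.03) in the authors' deposited table. At counts this low the size depends on the constant added, which makes neither a bound. WT replicate 1, the library with the most mitochondrial rRNA, had the lowest WT value, from 5 reads.

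The PVRIG row cannot be tied to a locus with certainty. RefSeq, on assembly GRCm38.p6, lists the protein-coding gene Pvrig and, overlapping it, a pseudogene Pvrig-ps that has Pvrig among its older names, while the submitters' notes name mm9. How many of the row's reads would belong to either is unknown.

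Cd226, the costimulatory partner that shares the ligand PVR with TIGIT, had 53.2, 55.5, 70.7, 87.2 and 64.7 normalized counts in the libraries labelled Flcn KO, against 142, 124, 112, 96.3 and 108 in WT libraries. The groups came within 9.11 normalized counts of each other, between replicate 4 labelled Flcn KO and WT replicate 4, whose exact Poisson intervals (69.9 to 107 and 76.9 to 119) overlapped. The means were 66.3 ± 13.7 in libraries labelled Flcn KO and 117 ± 17.5 in WT libraries, a log2 difference of -0.82 (SE 0.17).

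Cd96, which binds PVR and is also found on NK and CD8 T cells, was the most abundant of the 4. It had 442, 371, 469, 384 and 395 normalized counts in the libraries labelled Flcn KO, against 749, 541, 536, 564 and 521 in WT libraries. WT replicate 1 was far above the other WT libraries, and the groups did not overlap. The means were 412 ± 41.4 in libraries labelled Flcn KO and 582 ± 94.7 in WT libraries, a log2 difference of -0.49 (SE 0.14). Without WT replicate 1 the difference was -0.40.

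**Figure D2:**
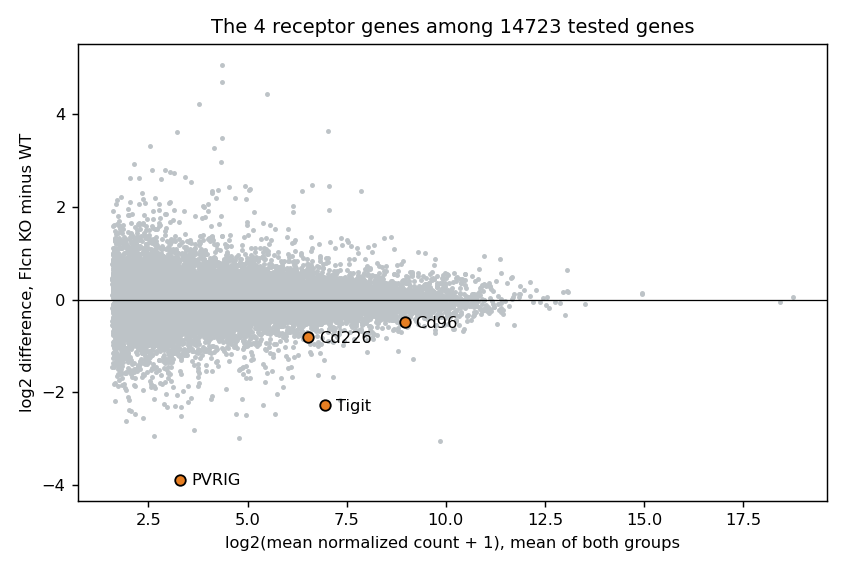
Log2 difference between libraries labelled Flcn KO and WT libraries (vertical axis, positive is higher in Flcn KO) against the log2 mean normalized count + 1 (horizontal axis) for 14723 tested genes, 1 grey point each, with the 4 receptors in orange. With 1 added to each count PVRIG, which passed the filter through WT libraries alone, is lowest at -3.89 and Tigit ranks 18 from the lowest at -2.28 (with 5 added PVRIG is at -2.04 and Tigit at -2.17), Cd226 lies at -0.82 and Cd96 at -0.49.

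Per kilobase of transcript, with the longest GENCODE vM21 coding transcript of each gene, the order of levels was Cd96, Tigit, Cd226 and PVRIG in both groups. In libraries labelled Flcn KO, Cd96 averaged 189 ± 19.0 normalized counts per kilobase, Tigit 46.4 ± 21.9, Cd226 14.7 ± 3.04 and PVRIG 0.159 ± 0.355. In WT libraries, Cd96 averaged 267 ± 43.4 per kilobase, Tigit 220 ± 56.7, Cd226 25.9 ± 3.89 and PVRIG 16.3 ± 8.12 (SD, n = 5 each). Tigit and Cd96 were neighbours whose WT ranges overlapped (150 to 302 and 238 to 343), whereas in libraries labelled Flcn KO they stood apart (30.1 to 84.2 and 170 to 215). Cd226 and PVRIG likewise overlapped in WT libraries (21.4 to 31.7 and 5.73 to 28.3) and stood apart in the libraries labelled Flcn KO (11.8 to 19.4 and 0 to 0.794). Lengths come from another build than the files, so levels between genes are approximate.

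The ratio between receptors within a library needs no scaling between libraries. Tigit over Cd226, in normalized counts, was 0.565, 0.680, 1.09, 0.466 and 0.427 in the libraries labelled Flcn KO, against 1.57, 1.11, 2.48, 1.96 and 1.70 in WT libraries. These are ratios of counts, uncorrected for transcript length, and per kilobase Tigit was above Cd226 in both groups. Replicate 3 labelled Flcn KO and WT replicate 2 nearly touched. Tigit over Cd96 averaged 0.102 ± 0.0393 in libraries labelled Flcn KO and 0.352 ± 0.100 in WT libraries, with no overlap (0.0680 to 0.165 and 0.254 to 0.518). Cd96 over Cd226 averaged 6.42 ± 1.40 in libraries labelled Flcn KO and 5.02 ± 0.567 in WT libraries, and these ranges overlapped. Set against the Treg factor Foxp3, there were 22.6 to 73.2 Tigit counts per 1000 Foxp3 counts in libraries labelled Flcn KO and 106 to 218 in WT libraries.

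**Figure D3:**
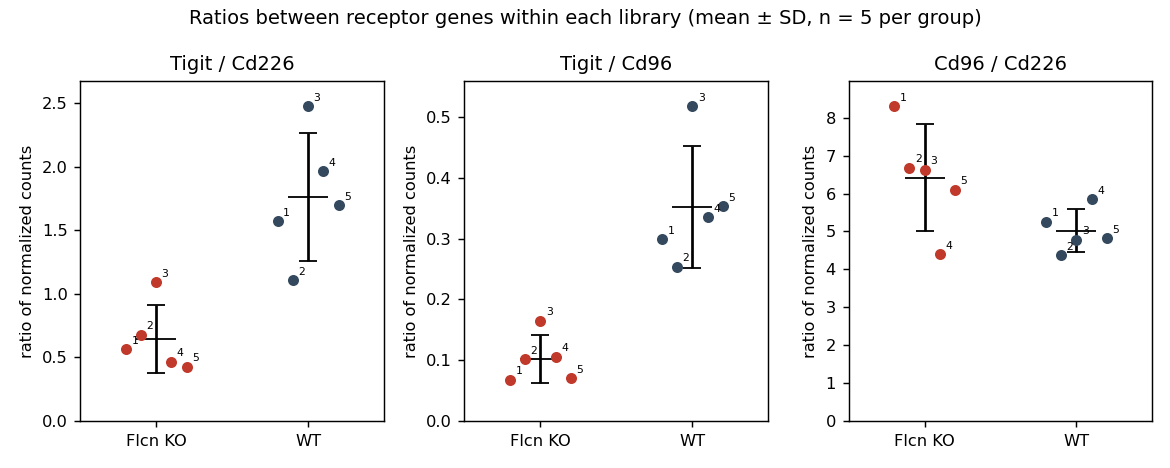
Ratios of normalized counts (vertical axis, linear from 0) of Tigit to Cd226, Tigit to Cd96 and Cd96 to Cd226 in the 5 libraries labelled Flcn KO and the 5 WT libraries, with replicate numbers and mean ± SD. Tigit to Cd226 tops out at 1.09 in libraries labelled Flcn KO and starts at 1.11 in WT libraries, while Cd96 to Cd226 overlaps between the groups.

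For 3 of the 4 receptors, Tigit, Cd96 and PVRIG (as Pvrig), RefSeq tables of build GRCm38.p6 hold the sequence before the gene's start. The 250 bases before each start are shown because these genes were lower together. Capitals mark matches to TGTGGT, a core bound by Runx factors, on either strand.
Tigit, chr16:43664185-43664434, strand -: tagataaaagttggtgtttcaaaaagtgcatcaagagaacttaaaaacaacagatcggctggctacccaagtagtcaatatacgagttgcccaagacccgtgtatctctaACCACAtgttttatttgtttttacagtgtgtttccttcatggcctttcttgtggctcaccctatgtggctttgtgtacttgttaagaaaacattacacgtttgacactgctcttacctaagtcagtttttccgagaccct
Cd96, chr16:46120249-46120498, strand -: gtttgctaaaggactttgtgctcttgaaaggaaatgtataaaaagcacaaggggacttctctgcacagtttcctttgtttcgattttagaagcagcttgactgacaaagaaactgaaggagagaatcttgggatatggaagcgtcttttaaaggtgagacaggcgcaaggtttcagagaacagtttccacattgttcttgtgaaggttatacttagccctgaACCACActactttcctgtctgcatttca
Pvrig, chr5:138341681-138341930, strand +: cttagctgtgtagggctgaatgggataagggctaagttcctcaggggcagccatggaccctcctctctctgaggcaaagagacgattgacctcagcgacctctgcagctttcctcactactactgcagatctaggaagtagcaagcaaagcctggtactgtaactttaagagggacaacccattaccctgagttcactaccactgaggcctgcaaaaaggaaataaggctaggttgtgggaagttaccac

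Tigit and Cd96 each hold 1 match, on the strand opposite to the gene (bases 140 to 135 and 28 to 23 before the start), and Pvrig holds none. Of all 32851 windows of this length 14.0% hold a match. The same windows were searched on both strands for CACGTG, the E-box that MiT/TFE factors bind (6.02% of all windows), the forkhead motif GTAAACA (3.17%), the AP-1 motif TGANTCA (6.75%) and the Blimp-1 motif AGNGAAAG (7.30%). None of these 4 motifs occurred in the 3 windows, and none of the motifs searched overlaps another in them. A match is a string of letters and not a bound site.

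The genes around the receptors were taken from 5 lists of 69 tested genes, adjusted with all 14723 genes of the fit. Of the 69, 6 fell in libraries labelled Flcn KO and none rose (limma, adjusted p under 0.05), a share of 8.70%, where 0.768% of all tested genes were called lower, 0.944% higher and 1.71% either way. At an unadjusted p under 0.05, 23 were lower and 3 higher, where 6.88% of all tested genes were lower and 7.16% higher. edgeR on the recovered reads called 19 lower and 2 higher of the 63 it tested, beside 2.62% lower and 3.02% higher of all genes it tested. DESeq2 called 18 lower and 2 higher of 69, beside 2.36% lower and 2.57% higher of all genes, and all 6 limma calls were also made by edgeR. The median log2 difference of the 69 was -0.19, beside 0.003 for all tested genes. The lists were drawn up with results of these data known, so the share describes them and no more. With 1 library left out, limma called 7 of the 69 without replicate 3 labelled Flcn KO, 2 without replicates 1, 4 or 5 labelled Flcn KO or WT replicates 1, 2 or 5, and 1 without replicate 2 labelled Flcn KO or WT replicates 3 or 4.

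**Figure D4:**
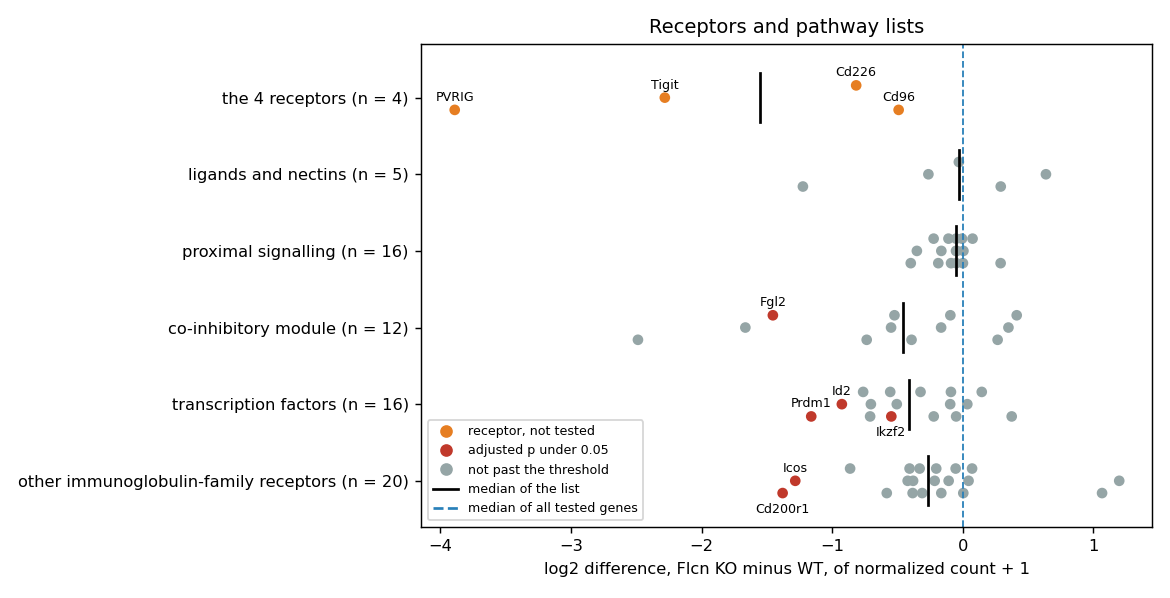
Log2 difference between libraries labelled Flcn KO and WT libraries (horizontal axis) for the 4 receptors and the tested genes of 5 lists (rows), 1 point per gene, with the list's median as a black bar and the median of all tested genes as a dashed line. The ligand and signalling lists centre near 0 (medians -0.03 and -0.05), and the 6 genes past the threshold, in red, are all on the negative side.

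None of the tested genes in the ligand list was called. Pvr, the ligand shared by TIGIT, CD96 and CD226, had 156, 184, 178, 217 and 200 normalized counts in the libraries labelled Flcn KO, against 232, 188, 137, 222 and 185 in WT libraries. The groups overlapped, with a log2 difference of -0.03 (SE 0.17, limma adjusted p = 0.966). Its level per kilobase, 64.4 ± 7.91 in libraries labelled Flcn KO and 66.4 ± 12.8 in WT libraries, overlapped that of Tigit in libraries labelled Flcn KO (53.7 to 74.7 for Pvr and 30.1 to 84.2 for Tigit) and lay below that of Tigit in WT libraries (47.3 to 79.7 for Pvr and 150 to 302 for Tigit). Afdn, the adaptor of nectins, averaged 23.9 ± 4.70 in libraries labelled Flcn KO and 19.3 ± 3.23 in WT libraries (limma adjusted p = 0.490). Nectin4, Cadm1 and Crtam, a receptor that binds Cadm1, averaged at most 5.03 normalized counts in either group, and none passed. Nectin1, Nectin2 and Nectin3 had no row under these names and were not analysed here. In this list of 5 tested genes none was lower or higher by limma, edgeR or DESeq2, and 1, Cadm1, named after its values were seen, was lower at an unadjusted p under 0.05. The libraries show the sorted Treg cells, and ligands on other cells were not measured.

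Of 16 tested genes that carry the receptors' signals none passed in limma (2 were lower and none higher at an unadjusted p under 0.05), and the median log2 difference was -0.05, with 12 of 16 negative. Fyn, Itgal and Itgb2 had groups that did not overlap, with libraries labelled Flcn KO below, as 2.45% of all tested genes did. The 2 lower at an unadjusted p were Itgal and Itgb2, the chains of the integrin LFA-1, which associates with CD226. Itgal had 966, 819, 960, 780 and 795 normalized counts in the libraries labelled Flcn KO, against 1180, 1122, 1231, 1124 and 1022 in WT libraries. The groups did not overlap, with a log2 difference of -0.40 (SE 0.12, limma adjusted p = 0.159). Itgb2 averaged 837 ± 127 in libraries labelled Flcn KO and 1059 ± 25.7 in WT libraries, also without overlap (-0.35, SE 0.13, limma adjusted p = 0.252). DESeq2 and edgeR each called both lower (in edgeR, adjusted p = 0.0116 for Itgal and 0.0441 for Itgb2). Prkca, a protein kinase C gene, had a log2 difference of 0.002 (SE 0.12) and Foxo1, a transcription factor that AKT restrains, -0.16 (SE 0.11, limma adjusted p = 0.559).

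In the list of co-inhibitory receptors and effector genes known beside Tigit on T cells, 1 of 12 tested members fell and none rose in limma (6 were lower and none higher at an unadjusted p under 0.05). The list's median was -0.46. That member was Fgl2, which TIGIT signalling induces in Treg cells. It had 19.7, 38.9, 63.0, 41.6 and 23.2 normalized counts in the libraries labelled Flcn KO, against 87.9, 67.6, 122, 95.2 and 115 in WT libraries. The groups did not overlap, and came nearest at replicate 3 labelled Flcn KO and WT replicate 2. The log2 difference was -1.45 (SE 0.31, limma adjusted p = 0.0466), and it kept its call with 1 library left out only without replicate 3 labelled Flcn KO (adjusted p = 0.0276, up to 0.118 without WT replicate 3). Ctla4, which takes B7 ligands away from CD28, averaged 879 ± 113 in libraries labelled Flcn KO and 1261 ± 143 in WT libraries without overlap (limma adjusted p = 0.106). Gzmb, a cytotoxic protease, averaged 36.1 ± 25.5 in libraries labelled Flcn KO and 101 ± 23.7 in WT libraries (limma adjusted p = 0.0710). The ectoenzymes of adenosine production, Entpd1 (-0.55, SE 0.18) and Nt5e (-0.39, SE 0.18), did not pass. edgeR called Fgl2, Ctla4, Gzmb, Klrg1 and Entpd1 lower in this list. Chosen after their values were seen, the inhibitory receptors Pdcd1 (-0.17, SE 0.19), Lag3 (0.27, SE 0.29) and Havcr2 (-0.74, SE 0.30) did not pass, and their groups overlapped.

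Of 16 transcription factors tied to these receptors or to the T cell states that carry them, 3 fell in limma and none rose, with a median of -0.41. Prdm1, which encodes Blimp-1, a factor that drives co-inhibitory receptor genes in T cells, had 60.0, 65.5, 117, 59.5 and 50.2 normalized counts in the libraries labelled Flcn KO, against 150, 125, 194, 130 and 170 in WT libraries. The groups did not overlap, and replicate 3 labelled Flcn KO was nearest to WT. The log2 difference was -1.16 (SE 0.23, limma adjusted p = 0.0370). Id2, an inhibitor of E proteins, averaged 50.3 ± 14.9 in libraries labelled Flcn KO and 94.6 ± 14.6 in WT libraries (-0.93, SE 0.20, limma adjusted p = 0.0486), and its groups overlapped at replicate 3 labelled Flcn KO and WT replicate 2. Without replicate 3 labelled Flcn KO both were called (adjusted p = 0.00842 for Prdm1 and 0.0162 for Id2), and both lost their calls when any other single library was left out (adjusted p up to 0.0961 for Prdm1 and 0.125 for Id2). Ikzf2, which encodes Helios, averaged 2732 ± 77.6 in libraries labelled Flcn KO and 4000 ± 301 in WT libraries (-0.55, SE 0.11, adjusted p = 0.0336), and was called only without WT replicates 1 or 2 (adjusted p = 0.0484 to 0.0938 over the 10 fits with a library left out). Maf, the partner of Blimp-1 in this role, had a log2 difference of -0.76 (SE 0.22, limma adjusted p = 0.139). Maf was called lower by edgeR (adjusted p = 0.0044) and DESeq2 (adjusted p = 0.0014). Foxp3 was at -0.09 (SE 0.11) and Bach2 at 0.04 (SE 0.11), and Tcf7 was 0.38 higher (SE 0.11, limma adjusted p = 0.156), without overlap. Tcf7 was called higher by edgeR (adjusted p = 0.0135) and DESeq2 (adjusted p = 0.00047). In this list edgeR called 6 lower and 1 higher of the 15 it tested, and DESeq2 6 lower and 1 higher of 16.

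Among 20 other receptors of the immunoglobulin superfamily, 2 fell in limma and none rose, with a median of -0.26. At an unadjusted p under 0.05, 8 were lower and 2 higher. edgeR called 6 lower and 1 higher of the 18 it tested, and DESeq2 6 lower and 1 higher of 20. The 1 higher in edgeR was Lair1, named after its values were seen (edgeR adjusted p = 0.00949). Lair1 averaged 57.6 ± 18.0 in libraries labelled Flcn KO and 26.6 ± 6.79 in WT libraries, without overlap (1.07, SE 0.27, limma adjusted p = 0.0907). Icos, a costimulatory receptor of the CD28 family, had 288, 371, 411, 281 and 299 normalized counts in the libraries labelled Flcn KO, against 1177, 716, 873, 630 and 685 in WT libraries, a log2 difference of -1.28 (SE 0.20, limma adjusted p = 0.0127). It kept its call in all 10 fits with a library left out. Cd200r1, the inhibitory receptor of CD200, averaged 22.7 ± 7.41 in libraries labelled Flcn KO and 59.0 ± 11.9 in WT libraries (-1.38, SE 0.25, limma adjusted p = 0.0250), and kept its call in 5 of those 10 fits. It lost it without replicate 2 labelled Flcn KO or WT replicates 1, 2, 3 or 4 (adjusted p up to 0.0707). The abundant receptors Cd28 (0.07, SE 0.11), Cd47 (-0.05, SE 0.12), Cd2 (0.005, SE 0.20) and Cd84 (-0.42, SE 0.18) did not pass.

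**Figure D5:**
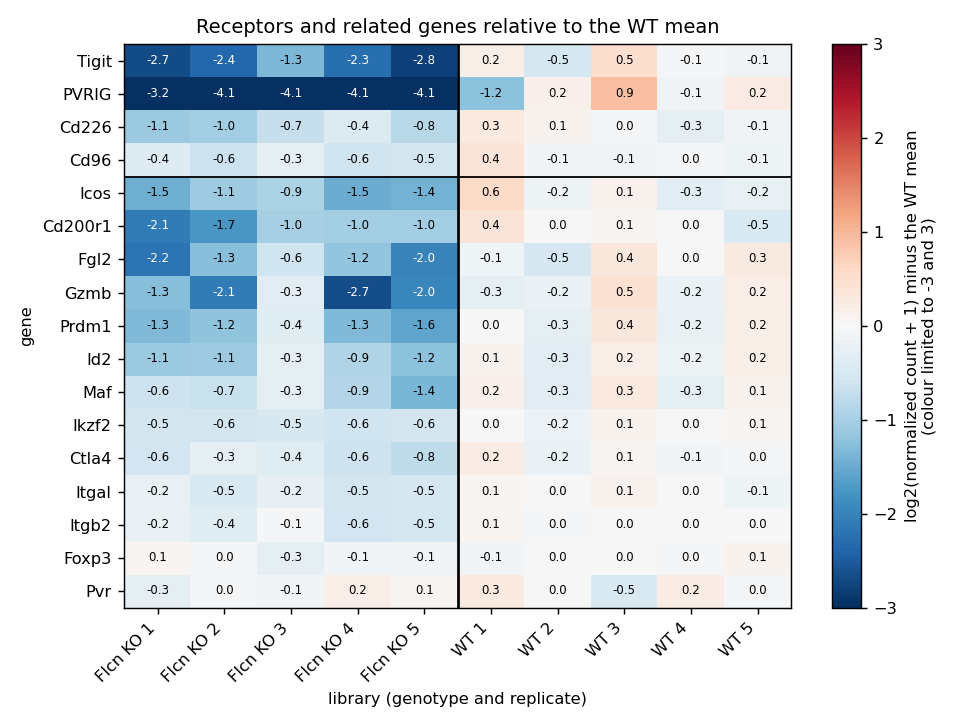
Log2(normalized count + 1) minus the WT mean of each gene (colour, limited to -3 and 3, with the value printed) for the 4 receptors (top) and 13 related genes (rows) in 5 libraries labelled Flcn KO and 5 WT libraries (columns). Replicate 3 labelled Flcn KO is the palest of its group for Tigit, Fgl2, Gzmb, Prdm1 and Id2, while Foxp3 and Pvr stay near 0 in most libraries.

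Replicate 3 had the highest Tigit of the libraries labelled Flcn KO (77.4 against 27.6 to 40.6), and it was the highest of its group for 7 of 12 genes of the co-inhibitory list and 9 of 16 transcription factors, beside 19.1% of all tested genes. Fgl2 and Gzmb (78.5 against 14.9 to 40.3) are among those 7, and Prdm1 and Id2 among those 9. Outside these lists, replicate 3 was also the highest of its group in Cd96. WT replicate 3 had the highest Tigit and PVRIG of the WT libraries, and it was the highest for 7 of those 12 and 7 of those 16 genes, beside 19.96% of all tested genes. The other lists had another order. In the signalling list replicate 3 labelled Flcn KO was the highest for 3 of 16 genes and replicate 1 for 8, while WT replicate 3 was the highest for 3 and WT replicate 1 for 8. Over all tested genes, replicate 1 was the highest of its group for 24.3% in libraries labelled Flcn KO and 28.2% in WT libraries. Among the other immunoglobulin-family receptors replicate 3 labelled Flcn KO was the highest for 8 of 20, WT replicate 3 for 2 and WT replicate 1 for 8. Cd226 did not share this order. Replicate 4 had the highest Cd226 of the libraries labelled Flcn KO, and WT replicate 1 the highest of the WT libraries. Between libraries the coefficient of variation was 47.1% for Tigit, 20.6% for Cd226 and 10.1% for Cd96 in libraries labelled Flcn KO, against 25.8%, 15.0% and 16.3% in WT libraries.

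Other cells of the spleen also carry these receptors, so their markers were measured. Of 12 markers of CD8 T and NK cells 8 were tested, none passed in limma, and their summed level was 84.4 to 159 normalized counts in libraries labelled Flcn KO and 88.2 to 125 in WT libraries. Ncr1, Klrb1c, Klra8 and Klre1, which define NK cells, had no row. Of 10 B cell markers none passed, with a summed level of 1297 to 2622 in libraries labelled Flcn KO and 1170 to 1388 in WT libraries, most of it Ighm. The 9 myeloid and dendritic cell markers that were tested, of 10, summed to 161 to 336 in libraries labelled Flcn KO and 96.6 to 304 in WT libraries. The 3 platelet and erythroid markers tested, of 8, summed to 21.1 to 56.5 in libraries labelled Flcn KO and 17.3 to 38.8 in WT libraries. None of them passed in limma. The median log2 difference was -0.03 in the CD8 T and NK cell list, and 0.49, 0.41 and 0.39 in the B cell, myeloid and platelet lists. In libraries labelled Flcn KO, replicate 3 gave the upper end of the CD8 T and NK cell, B cell and myeloid sums. It held 2378 normalized counts of Ighm (the others 1153 to 1482) and 154 of Lyz2 (the others 51.1 to 110). The upper end of the platelet and erythroid sum came from replicate 4 labelled Flcn KO (Alas2 at 45.6). Replicate 3 is also the library of that group with the highest Tigit. The part of such cells in the values of the receptors, those of replicate 3 included, was not tested.

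The genes whose pattern was most like each receptor were found among 7359 genes of at least median level. Likeness was the root mean square difference of log2(normalized count + 1), each gene centred over the 10 libraries. For Tigit, which itself varied by 1.22 about its mean, they were Nav2 (0.36), the macrophage growth factor gene Csf1 (0.39) and Fgl2 (0.47). Nav2 averaged 57.8 ± 10.3 normalized counts in libraries labelled Flcn KO and 261 ± 32.4 in WT libraries. For PVRIG, which varied by 2.02, they were the titin gene Ttn (0.93), the O-glycan branching enzyme gene Gcnt1 (1.04) and Nav2 (1.04), none of them close. For Cd226, which varied by 0.47, they were Slc9a9, a sodium-proton exchanger gene of endosomes (0.16), Gm1966 (0.18) and Gm37691 (0.18). For Cd96, which varied by 0.29, they were the Polycomb gene Eed (0.088), the T cell factor gene Gata3 (0.092) and Tm9sf2 (0.098). Among the receptors themselves, Cd226 and Cd96 were the nearest pair (0.28), and Tigit was closer to Cd226 (0.85) than to Cd96 (0.98) or PVRIG (1.09). These distances describe 10 libraries in which the difference between groups is the main source of spread.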

How the data were processed

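The labels describe 10 libraries of sorted spleen Treg cells, 5 per genotype. Each library had a column of signal, deposited as gene read counts that the authors divided by 1 size factor per library. In all 10, 100% of values were whole multiples of 1 read within 0.01. The authors deposited a comparison as well, with a log2 fold change, its error, a score (Wald statistic) and a p-value, raw and adjusted. DESeq2 1.24.0, RSEM 1.3.1, STAR 2.5.3a, Trimmomatic 0.36 and build mm9 are named, without roles, per the submitters' processing notes. The annotation is not given in the sources used here. RNA was taken with a column kit and cDNA by a low-input NuGEN method, per the labels' protocols.

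The test was limma 3.58.1 (R 4.3.3) on log2(normalized count + 1) of genes with at least 1 normalized count in 5 libraries (14723 of 14738), with genotype alone, eBayes without trend or robust, and Benjamini-Hochberg adjustment over all of them at 0.05. An added 1 understates changes of low genes. edgeR 4.0.16 and DESeq2 1.42.0 on the recovered reads were alternatives. Scripts were tested on simulated data. The members and lists were chosen with earlier results of these data known. Named genes are the members, every list gene past the threshold and, per list, up to 4 others by highest mean, with the 3 nearest patterns of each member. Nothing says that libraries came from separate animals beyond the design text's biological replicates, so p-values measure the spread between these libraries. Libraries of a group differed by more than counting noise, so each counted as 1 sample. The chi-square per df between pairs was 3.17 to 12.4 in libraries labelled Flcn KO. It was 27.9 to 35.0 in pairs with WT replicate 1 and 2.24 to 3.54 in the other WT pairs. Cd244 stands for Cd244a. Same-numbered libraries of the groups share only a number.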

Additional observations from a re-analysis of the deposited data

Results flagged for a closer look

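In 70 groups of 5 libraries, 10 had a library set apart from the others by most of the group's range (Dixon's test at its 95% critical value), where chance gives about 1 in 20. In libraries labelled Flcn KO, replicate 3 was high in Tigit (77.4 normalized counts, the others 27.6 to 40.6), in Tigit per 1000 Foxp3 counts (73.2, the others 22.6 to 33.7), in Prdm1 (117, the others 50.2 to 65.5) and in Id2 (76.3, the others 39.6 to 49.5). These 4 share a library, and the first pair shares a gene. Replicate 1 labelled Flcn KO held the only PVRIG read of its group (0.857 normalized counts, the others 0). With the others at 0, any read would set its library apart, so this entry carries no weight among the 10. Replicate 2 labelled Flcn KO was high in Afdn (32.2, the others 21.0 to 23.2) and Crtam (7.77, the others 0.857 to 2.51). Among WT libraries, replicate 1 was high in Cd96 (749, the others 521 to 564) and Cd84 (1321, the others 730 to 759), and replicate 3 was low in Bach2 (630, the others 728 to 743). WT replicate 1 is the library with 44.1% mitochondrial rRNA; its part in Cd96 and Cd84 was not tested.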

How the results depend on the processing

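The log2 differences of Tigit, Cd226 and Cd96 stayed negative in all 20 alternatives, from -2.52 to -2.15, -0.92 to -0.74 and -0.54 to -0.40. Leaving out 1 library at a time gave these limits. PVRIG stayed negative wherever it entered, at -4.73 with a pseudocount of 0.5, -2.04 with 5, -6.13 in DESeq2 and -4.07 to -3.85 with a library labelled Flcn KO left out. It did not pass the filters of edgeR, of 10 normalized counts, or of any fit without a WT library. The count of pathway genes lower, 6, became 4 with a pseudocount of 0.5, where Fgl2 (limma adjusted p = 0.0543) and Id2 (0.0538) lost their calls, 10 with a pseudocount of 5 and with the filter of 10, 16 with trend and robust on (2 higher), 19 in edgeR (2 higher), 18 in DESeq2 (2 higher) and 1 to 7 with a library left out (0 higher). Over all genes, 139 higher and 113 lower became 325 and 273 with trend and robust on, 317 and 275 in edgeR, 379 and 348 in DESeq2, and 72 to 134 and 44 to 87 with a library left out. With the replicate block, limma called 35 higher and 24 lower over all genes and 0 pathway genes lower; same-numbered libraries had correlations of -0.03 to 0.06, no library labelled Flcn KO correlated best with its own number, and the numbers do not pair the samples. Genes near 0 changed sign without a call: Cd2 was -0.0065 with upper-quartile scaling, -0.036 in edgeR, -0.031 in DESeq2 and -0.17 to 0.075 with a library left out; Prkca was -0.0092 with upper-quartile scaling, -0.0026 in edgeR and -0.037 to 0.047 with a library left out. With a library left out, Pvr ran from -0.14 to 0.042, Bach2 from -0.0093 to 0.085 and Crtam from -0.78 to 0.088. The cause was not tested. Of 516 values of 26 named list genes under alternatives, 425 kept direction and call, 48 lost a call, 24 gained it and 19 changed sign. Rescaling by TMM or without mitochondrial rRNA moved the median of all genes to 0.006 or -0.007. PVRIG, at up to 25 reads per library, is limited by depth.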
